A study of Oryza sativa with 6 samples.

Results

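The 10 genes described here encode the enzymes that build glutamine, glutamate, asparagine and alanine in rice (Oryza sativa). They are the cytosolic glutamine synthetases GS1.1, GS1.2 and GS1.3, the plastid glutamine synthetase GS2, the glutamate synthases NADH-GOGAT1, NADH-GOGAT2 and Fd-GOGAT, the asparagine synthetases AS1 and AS2, and the alanine aminotransferase AlaAT. They were chosen by locus: each probe set annotated with exactly 1 of these loci was taken, which gave 17 probe sets of the 57194 on the array that are not controls, and 10 of 25727 genes. A probe set is the group of short probes that together measure 1 transcript. Of the 17 probe sets, 16 passed the filter on low signal and were tested, with at least 1 for every gene. Where a gene had several, the one with the highest mean signal is called its leading probe set and carries the gene's values unless another is named.

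Root RNA of seedlings of the varieties Varadan and Prasanna was hybridised to 6 Affymetrix rice arrays. There was 1 array of Varadan without nitrogen and 2 with supplemented nitrogen, and likewise 1 and 2 of Prasanna. All seedlings were grown in hydroponics, are labelled as 14 days old, and had received Yoshida medium, a rice nutrient solution, containing nitrogen before the supplies were split. The labels give 7 days for germination and 10 days for that medium, a sum above the labelled age, and they give neither the form of nitrogen nor the length of the treatment. Values are log2 signals, so a difference of 1 is a doubling, and a nitrogen response is the signal without nitrogen minus the signal with it.

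The labels of the Varadan arrays carry a doubt that touches every nitrogen result below. Between the deposited tables, the names of 2 Varadan arrays, the one without nitrogen and replicate 1 of those with it, are exchanged, and nothing in the sources settles which naming is right. The log2 table is followed here. In it NRT2.3, a high-affinity nitrate transporter, read 12.49 in Varadan without nitrogen, against 12.29 in replicate 1 and 7.78 in replicate 2 of Varadan with nitrogen. In Prasanna it read 11.31 without nitrogen, against 6.82 and 7.06 with nitrogen. Replicate 1 of Varadan with nitrogen therefore held this gene close to the level of the array without nitrogen, whichever of the exchanged names is right. The tests are those on all 6 arrays. Nitrogen responses on the 5 arrays without that replicate are given beside them as descriptions only. The replicate is left out because of its levels of some nitrogen-responsive genes. A test of the nitrogen response without it would thus rest on a choice made from the outcome. Like NRT2.3, the nitrite reductase NiR read 10.73 on it, nearer to 11.26 without nitrogen than to 14.31 in replicate 2. Unlike them, the nitrate reductase NIA1 read 13.24 on it, nearer to 13.15 in replicate 2 than to 13.91 without nitrogen. The Prasanna arrays are touched by neither doubt, but the tests within Prasanna are, as their error is pooled with that of the Varadan pair. The labels do not tell whether replicates were grown as separate cultures. The p-values therefore measure the spread of these samples only, and that spread may be technical.

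The tissue label was checked on marker genes. The mean of 4 root markers, among them the silicon transporters Lsi1 and Lsi2, was between 14.24 and 14.98 on the Varadan arrays and between 14.21 and 14.65 on the Prasanna arrays. The 8 measured markers of green tissue, which encode Rubisco small subunits, Rubisco activase and light-harvesting proteins, were not low in these root samples, with no reading under 7.86. Their mean was 13.43 in Varadan without nitrogen, against 12.67 and 11.49 in Varadan with nitrogen. In Prasanna it was 11.71 without nitrogen, against 11.38 and 10.73 with nitrogen. The signal ratio of the 3' to the 5' probe set of GAPDH, a sign of RNA integrity, lay between 4.38 and 4.77 log2 on the Varadan arrays and between 3.06 and 3.52 on the Prasanna arrays. In bulk RNA of this kind, fewer cells of a type and less RNA per cell cannot be told apart.

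Plants take ammonium into organic form in the glutamine synthetase and glutamate synthase cycle. Glutamine synthetase joins ammonium to glutamate, and glutamate synthase (GOGAT) passes the amide of glutamine to 2-oxoglutarate, with electrons from NADH or ferredoxin. Asparagine synthetase moves the same amide onto aspartate to make asparagine, a nitrogen-rich transport compound, and alanine aminotransferase makes alanine from glutamate and pyruvate. In rice roots GS1.2, NADH-GOGAT1 and AS1 are known as genes that ammonium induces, and GS1.1 as a gene whose transcript is more abundant at low ammonium.

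On all 6 arrays none of the 10 genes passed the test for a nitrogen response at an adjusted p under 0.05 (limma), and of all tested probe sets 0% did, higher or lower. At an unadjusted p under 0.05 there were 4 of the 10 genes, 1 higher without nitrogen (GS1.1) and 3 lower (AS1, AlaAT and NADH-GOGAT1), and 21.6% of all tested probe sets. Their fitted responses ran from 1.27 ± 0.42 for GS1.1 to -2.01 ± 0.84 for AS1 (log2 ± SE). Over the 9 genes with no reading at background level the median response was 0.06, against -0.002 over all tested probe sets. Under the series matrix's names none of the 10 genes had an unadjusted p under 0.05 (limma), against 6.73% of all tested probe sets. For the 4 genes named above it was then 0.0593 (GS1.1), 0.0561 (AS1), 0.136 (AlaAT) and 0.269 (NADH-GOGAT1), with the signs of their responses kept. Within a variety none of the 10 genes was called, nor was any tested probe set (0%). That test pools 1 error over both varieties (SE 0.65 for GS1.1 in each, by the log2 table's names). The lack of calls in Prasanna therefore also depends on the Varadan pair with nitrogen.

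Of the 6 ways to leave out 1 array, only that without replicate 1 of Varadan with nitrogen gave any call for the response over both varieties. GS1.1 was then called higher and AS1, AlaAT, NADH-GOGAT1 and Fd-GOGAT lower, among 13.5% of all tested probe sets, 5.96% higher and 7.5% lower. Without a variance trend on signal level no gene and no probe set was called on those 5 arrays. As that array was singled out by the outcome, these calls are no evidence of a response and nothing below rests on them.

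**Figure D1:**
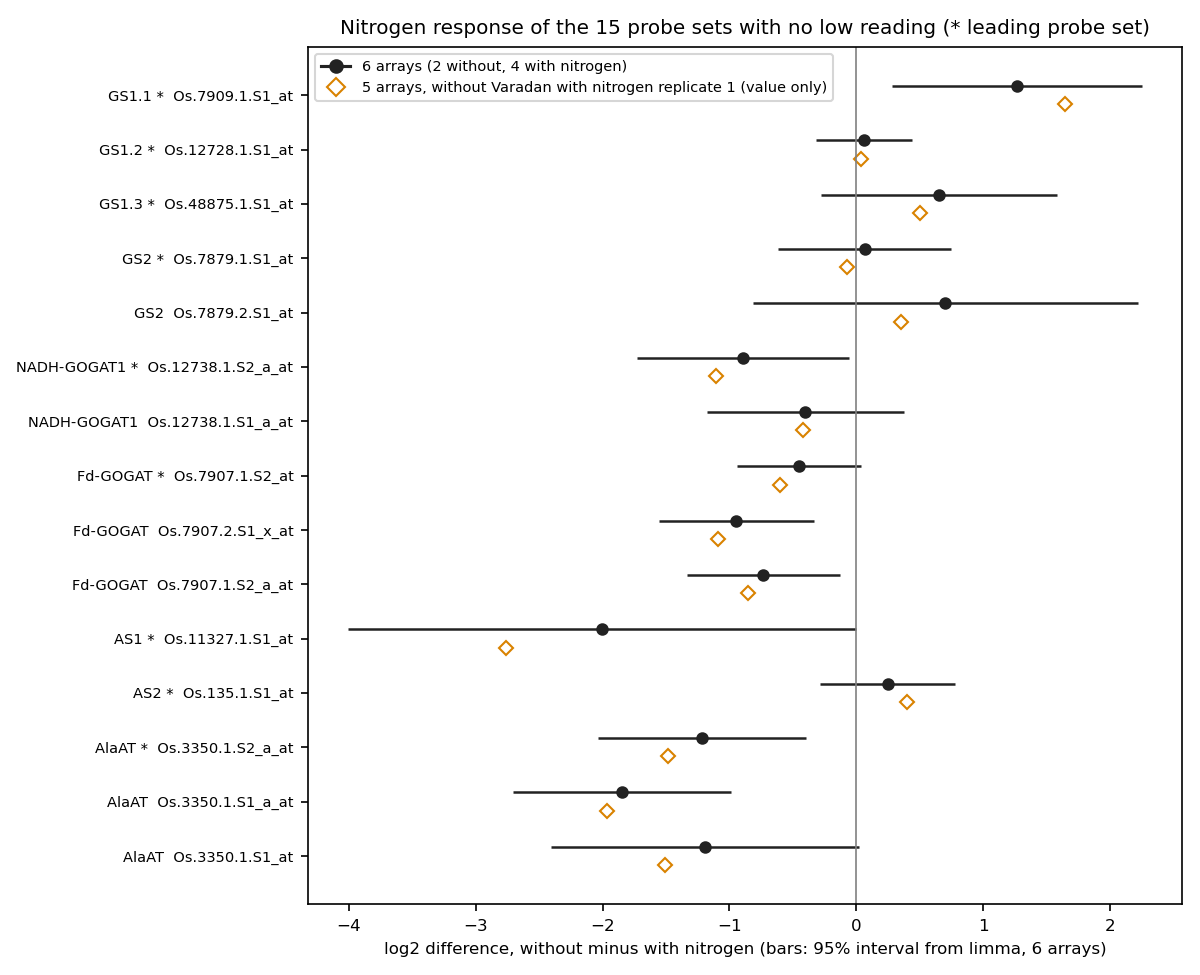
Nitrogen response (log2 signal without nitrogen minus with nitrogen, horizontal axis) of the 15 tested probe sets with no reading at background level, on 6 arrays (black, bars are 95% intervals from limma) and on the 5 arrays without Varadan with nitrogen, replicate 1 (open orange diamonds, values only). The leading probe set of GS1.1 lies above 0 and those of NADH-GOGAT1, Fd-GOGAT, AS1 and AlaAT lie below 0 on both; no black point has an adjusted p under 0.05.

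GS1.1 (Os02g0735200) makes glutamine in the cytosol. Without nitrogen it read 14.99 in Varadan and 15.01 in Prasanna. With nitrogen it read 14.76 and 13.16 in Varadan (replicates 1 and 2; mean 13.96 ± 1.13, SD, n = 2) and 13.32 and 13.70 in Prasanna (mean 13.51 ± 0.27, SD, n = 2). Both arrays without nitrogen lay above all 4 arrays with nitrogen, but Varadan replicate 1 lay just under them and far from the other three. The response was 1.27 ± 0.42 on 6 arrays (SE, adjusted p = 0.163). On 5 arrays the value was 1.64. Within a variety it was 1.04 in Varadan and 1.50 in Prasanna, neither of which passed the test. The Varadan value hung on the replicate, at 1.84 against replicate 2 alone and 0.23 against replicate 1 alone.

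GS1.2 (Os03g0223400), the other main cytosolic form of roots, differed little between any of the arrays. It read 15.19 in Varadan and 15.32 in Prasanna without nitrogen. The arrays with nitrogen gave 15.07 and 15.17 in Varadan, and 15.06 and 15.48 in Prasanna seedlings. The groups overlapped, and the replicates in Prasanna spanned both arrays without nitrogen. The response of GS1.2 was 0.06 ± 0.16 on 6 arrays, with a 95% interval of -0.32 to 0.44. On 5 arrays the value was 0.04. Responses of either sign within these bounds are left possible by this number of arrays.

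GS1.3 (Os03g0712800), a cytosolic form known from rice grains, read 7.34 in Varadan and 7.04 in Prasanna without nitrogen. Its values with nitrogen were 6.40 and 7.19 in Varadan and 6.07 and 6.48 in Prasanna. Varadan replicate 2 lay between the arrays without nitrogen, so the groups overlapped, and the other arrays with nitrogen lay below both. The response was 0.65 ± 0.39 on 6 arrays (adjusted p = 0.369) and the value on 5 was 0.50.

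GS2 (Os04g0659100), the plastid enzyme, lay higher on every Varadan array than on every Prasanna array. It read 10.99 in Varadan and 9.02 in Prasanna without nitrogen. Supplied with nitrogen, it read 10.22 and 10.51 in Varadan and 9.43 and 9.60 in Prasanna. In Varadan the array without nitrogen was the highest of its 3, and in Prasanna it was the lowest. Under the names of the series matrix, the array without nitrogen is the one that read 10.22, the lowest in Varadan too. Over both varieties the response was 0.07 ± 0.29 on 6 arrays (adjusted p = 0.906), and the value on 5 was -0.08. The second probe set of GS2 read 7.63 in Varadan without nitrogen, against 5.29 and 6.12 with it, and 5.91 in Prasanna without nitrogen, against 6.54 and 6.34 with it. It held the same order within each variety as the leading one as to the array without nitrogen, but the varieties overlapped on it.

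**Figure D2:**
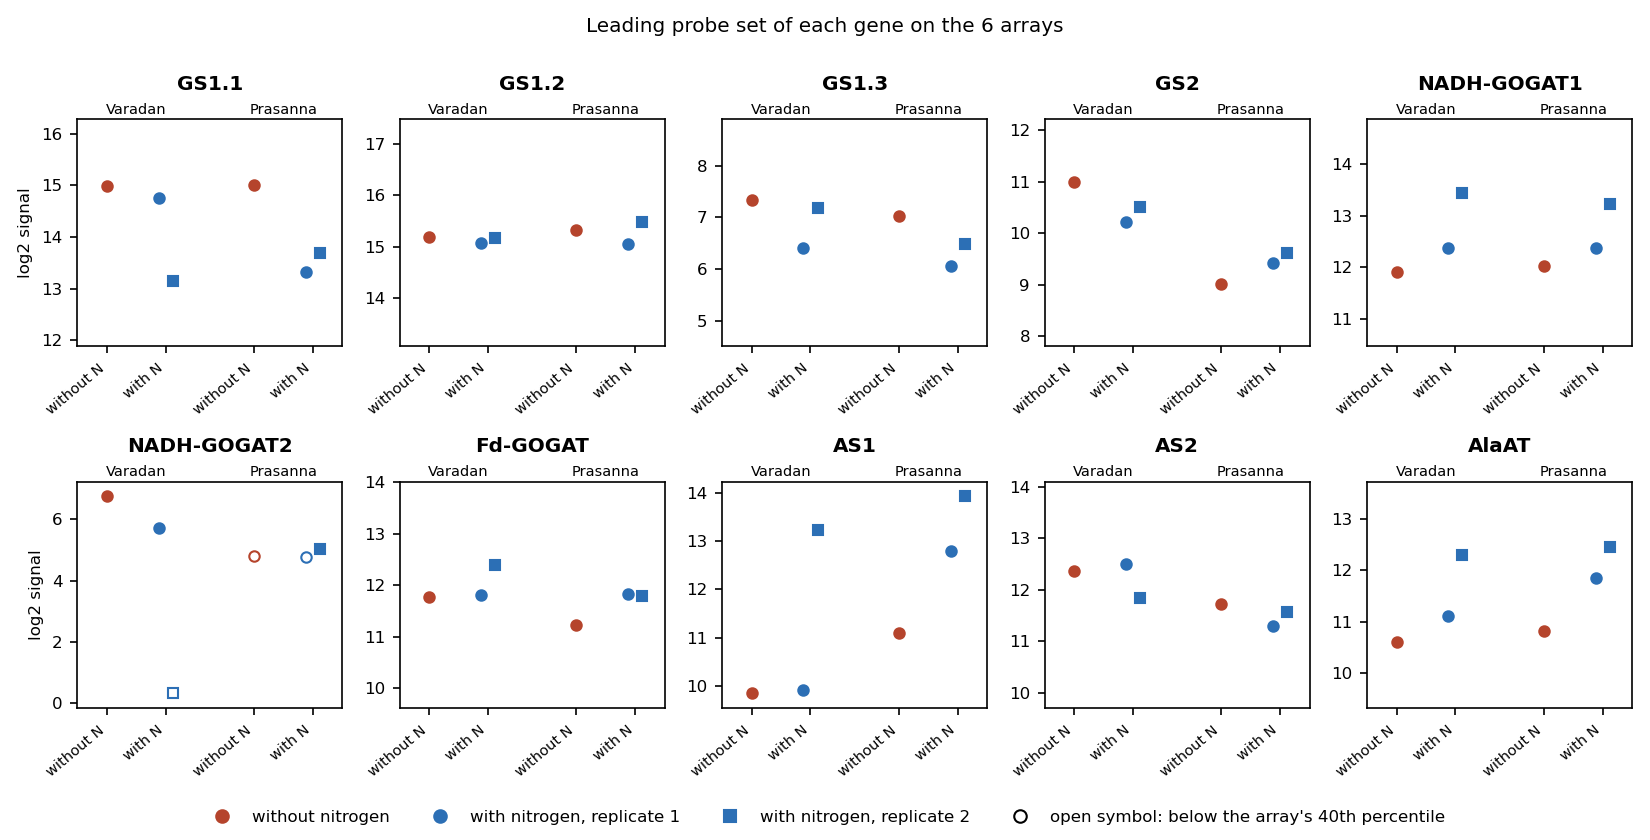
Log2 signal of the leading probe set of each of the 10 genes (vertical axis) on each array, with Varadan left of Prasanna and, in each variety, the array without nitrogen left of those with nitrogen. Open symbols lie below the 40th percentile of their array, and the axis of NADH-GOGAT2 spans more than the others. GS1.1 is high and AS1 low on replicate 1 of Varadan with nitrogen, next to the array without nitrogen.

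NADH-GOGAT1 (Os01g0681900), the glutamate synthase of roots that draws on NADH, read 11.90 in Varadan and 12.02 in Prasanna without nitrogen. The arrays with nitrogen gave 12.37 and 13.44 in Varadan (mean 12.91 ± 0.76, SD, n = 2) and 12.38 and 13.23 in Prasanna (mean 12.81 ± 0.60, SD, n = 2). Both arrays without nitrogen lay below all 4 with nitrogen, and in each variety replicate 1 lay nearer to them than replicate 2. The response was -0.90 ± 0.35 on 6 arrays (adjusted p = 0.207), and the value on 5 was -1.11. Within a variety it was -1.004 in Varadan and -0.79 in Prasanna, with no call. Against single replicates these spread to -1.54 and -0.47 in Varadan, and to -1.21 and -0.36 in Prasanna.

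The second probe set of NADH-GOGAT1 did not follow the first in Varadan. It read 9.03 in Varadan without nitrogen, against 8.95 and 8.61 with nitrogen. In Prasanna it read 8.72 without nitrogen, against 9.74 and 9.82 with nitrogen. It was thus lowest without nitrogen in Prasanna and highest without nitrogen in Varadan, where the series matrix's names put the array without nitrogen between those with it. Its response over both varieties was -0.40 ± 0.33 on 6 arrays (adjusted p = 0.495). The mean of both probe sets gave -0.65 on 6 arrays (adjusted p = 0.184).

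NADH-GOGAT2 (Os05g0555600), a form known mainly from rice leaves, was near background on 3 of 6 arrays. It read 6.75 in Varadan and 4.81 in Prasanna without nitrogen. With nitrogen the Varadan arrays gave 5.71 and 0.32, and the Prasanna arrays 4.77 and 5.02. The readings of 0.32, 4.81 and 4.77 lay below the 40th percentile of their arrays, which was between 4.89 and 5.42 over the 6 arrays, and are not taken as above background. No response or fold is given for this gene.

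Fd-GOGAT (Os07g0658400), the plastid glutamate synthase that draws on ferredoxin, read 11.77 in Varadan and 11.23 in Prasanna without nitrogen. Under nitrogen supply Varadan read 11.80 and 12.40, and Prasanna 11.83 and 11.80. Both arrays without nitrogen lay below all 4 with nitrogen, though Varadan without nitrogen and its replicate 1 nearly coincided. The response was -0.45 ± 0.21 on 6 arrays (adjusted p = 0.258), and the value on 5 was -0.60. In Varadan it was -0.33, with -0.62 against replicate 2 alone and -0.03 against replicate 1 alone, and in Prasanna it was -0.58. Of the other two tested probe sets, one is of the kind (x_at) whose probes may also match other transcripts. It read 9.09 in Varadan and 9.39 in Prasanna without nitrogen, against 9.77 and 10.52 in Varadan and 10.11 and 10.36 in Prasanna with nitrogen. The other read 9.47 in Varadan and 9.21 in Prasanna without nitrogen, against 10.06 and 10.75 in Varadan and 9.66 and 9.82 in Prasanna with nitrogen. On both, the arrays without nitrogen lay below all 4 others. Their responses on 6 arrays were -0.95 ± 0.26 (adjusted p = 0.134) and -0.73 ± 0.25 (adjusted p = 0.175). A further probe set of the gene was below the 40th percentile on 5 of 6 arrays and was not tested. The mean of the 3 tested probe sets gave -0.71 (adjusted p = 0.160).

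AS1 (Os03g0291500) makes asparagine and had the largest fitted response of the 9 genes with no reading at background level, with a wide error. It read 9.84 in Varadan and 11.09 in Prasanna without nitrogen. With nitrogen it read 9.90 and 13.23 in Varadan (mean 11.57 ± 2.36, SD, n = 2) and 12.79 and 13.94 in Prasanna (mean 13.36 ± 0.81, SD, n = 2). Varadan replicate 1 matched the Varadan array without nitrogen and lay below Prasanna without nitrogen, so the groups overlapped on 6 arrays. Without that replicate they did not overlap. The response was -2.01 ± 0.84 on 6 arrays (adjusted p = 0.231). On 5 arrays the value was -2.76. Within a variety it was -1.73 in Varadan and -2.28 in Prasanna, with no call. In Varadan the difference was -3.40 against replicate 2 alone and -0.07 against replicate 1 alone.

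AS2 (Os06g0265000), the other asparagine synthetase, read 12.38 in Varadan and 11.73 in Prasanna without nitrogen. Under nitrogen supply Varadan read 12.51 and 11.84, and Prasanna 11.29 and 11.57. The supplies overlapped, and all 3 Varadan arrays lay above all 3 Prasanna arrays. The nitrogen response was 0.25 ± 0.22 on 6 arrays (adjusted p = 0.537), and the value on 5 was 0.40. AS1 and AS2 thus had fitted responses of opposite sign, neither of which passed the test, and the difference between the genes was not tested.

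AlaAT (Os10g0390500), which makes alanine, read 10.60 in Varadan and 10.82 in Prasanna without nitrogen. Its values with nitrogen were 11.11 and 12.29 in Varadan (mean 11.70 ± 0.83, SD, n = 2) and 11.86 and 12.44 in Prasanna (mean 12.15 ± 0.41, SD, n = 2). Both arrays without nitrogen lay below all 4 with nitrogen, with Varadan replicate 1 the nearest of them. The response was -1.22 ± 0.34 on 6 arrays (adjusted p = 0.137), and the value on 5 was -1.49. One other probe set of AlaAT read 7.92 in Varadan and 9.41 in Prasanna without nitrogen, against 9.68 and 10.44 in Varadan and 10.45 and 11.47 in Prasanna with nitrogen, with no overlap. The remaining one read 7.21 in Varadan and 7.95 in Prasanna without nitrogen, against 7.57 and 8.95 in Varadan and 8.59 and 9.98 in Prasanna with nitrogen. Varadan replicate 1 lay between the arrays without nitrogen on that one. Their responses on 6 arrays were -1.85 ± 0.36 (adjusted p = 0.123) and -1.19 ± 0.51 (adjusted p = 0.237). Within a variety the leading probe set gave -1.10 in Varadan and -1.33 in Prasanna, with no call. In Varadan the difference was -1.69 against replicate 2 alone and -0.51 against replicate 1 alone. Under the series matrix's names the Varadan response was -0.33 on the leading probe set. On the other probe set with no overlap it was then 0.50, against -2.14 by the log2 table's names.

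Across the leading probe sets, 3 of the 10 genes lay lower on both arrays without nitrogen than on all 4 with it (NADH-GOGAT1, Fd-GOGAT and AlaAT), and 1 lay higher (GS1.1). Over all tested probe sets 17.5% lay lower and 14.1% higher. The orders of the genes named here hold under the log2 table's names only. Under those of the series matrix, GS1.1 read 14.76 without nitrogen in Varadan, below 14.99 on a Varadan array with nitrogen. NADH-GOGAT1, Fd-GOGAT and AlaAT then read 12.37, 11.80 and 11.11 there, above 11.90, 11.77 and 10.60 on that array with nitrogen. The groups overlap for each under those names, as they do on the other tested probe sets of Fd-GOGAT and AlaAT.

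Other genes of nitrogen assimilation were read from a list of 15 loci, of which 13 were tested. On 6 arrays none was called, against 0% of all tested probe sets, and 5 of the 13 had an unadjusted p under 0.05 (limma), against 21.6% of all. The median response of the 12 with no reading at background level was -0.58. NiR, the nitrite reductase, read 11.26 in Varadan and 9.98 in Prasanna without nitrogen, against 10.73 and 14.31 (Varadan), then 13.41 and 13.93 (Prasanna), with nitrogen. It is a gene that nitrate induces, and replicate 1 of Varadan with nitrogen held it below the array without nitrogen. Its response was -2.48 ± 0.98 (adjusted p = 0.210). The other four with an unadjusted p under 0.05 also had negative responses. GDH1, a glutamate dehydrogenase, which interconverts glutamate and 2-oxoglutarate, had -0.76 ± 0.29 (adjusted p = 0.199). The loci Os01g0760600 and Os02g0236000 had -0.86 ± 0.20 (adjusted p = 0.123) and -0.57 ± 0.18 (adjusted p = 0.161). Os07g0617800 had -0.46 ± 0.16 (adjusted p = 0.184). The remaining 7 with no reading at background level ran from -1.23 for GDH2 to 0.16 for Os02g0797500, and GDH3, with 3 such readings, is given no response. NIA1, a nitrate reductase singled out after its values were seen, had a response of 0.71 ± 0.20 in Varadan and -1.88 ± 0.20 in Prasanna. The difference of these responses was 2.60 ± 0.29 and did not pass (adjusted p = 0.925), and under the series matrix's names the Varadan value was -0.29. For the response over both varieties, NiR and GDH1 kept an unadjusted p under 0.05 under those names (0.00858 and 0.0487, limma). Os01g0760600, Os02g0236000 and Os07g0617800 did not, and NIA1 (0.0261), GDH2 (0.0168) and Os01g0208700 (0.0389) then had one. The share over all tested probe sets was 6.73%.

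On these arrays GS2 stood higher in Varadan than in Prasanna by its leading probe set. All 3 Varadan arrays (mean 10.57 ± 0.39, SD, n = 3) lay above all 3 Prasanna arrays (mean 9.35 ± 0.30, SD, n = 3). The variety difference, Varadan minus Prasanna, was 1.22 ± 0.27 on 6 arrays (adjusted p = 0.104). On the second probe set of GS2 it was 0.08 ± 0.60 (adjusted p = 0.978, limma), and the varieties overlapped. None of the 10 genes was called, against 1.75% of all tested probe sets. On the 5 arrays without replicate 1 of Varadan with nitrogen, a choice made after seeing the data, the difference was 1.41 ± 0.26 (adjusted p = 0.0401) and GS2 alone of the 10 genes was called, against 2.39%. That call is a description, and nothing here rests on it. No other way to leave out 1 array called it, and on those 5 arrays the call was lost without the variance trend (adjusted p = 0.350), after quantile normalization (0.0520) and with the mean of the probe sets (0.303). AS2 was the other gene with all Varadan arrays (mean 12.24 ± 0.36, SD, n = 3) above all Prasanna arrays (mean 11.53 ± 0.22, SD, n = 3). Of all tested probe sets, 6.66% lay above in Varadan in this way. The difference for AS2 was 0.71 ± 0.21 on 6 arrays (adjusted p = 0.242), and the value on 5 was 0.51. For Fd-GOGAT, also a plastid enzyme, it was 0.37 ± 0.19 on 6 arrays (adjusted p = 0.578, limma). The value on 5 was 0.57, and the varieties overlapped. Its other tested probe sets gave -0.16 ± 0.24 (adjusted p = 0.871) and 0.53 ± 0.24 (adjusted p = 0.506) on 6 arrays. NADH-GOGAT1 had a difference of 0.03 ± 0.33 on the leading probe set (adjusted p = 0.989) and -0.57 ± 0.31 on the second (adjusted p = 0.597). AS1 and AlaAT lay lower in Varadan by their means, with overlap. The difference for AS1 was the largest in size of the tested genes with no reading at background level, at -1.61 ± 0.80 (adjusted p = 0.553), and the value on 5 was -0.61. For AlaAT it was -0.37 ± 0.33 on the leading probe set (adjusted p = 0.761), and -1.10 ± 0.34 (adjusted p = 0.273) and -0.93 ± 0.48 (adjusted p = 0.574) on the others.

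The markers of green tissue also stood higher in Varadan by their means, but with overlap. Their mean was 11.49 on replicate 2 of Varadan with nitrogen, below 11.71 in Prasanna without nitrogen. All 8 had a higher mean in Varadan, with a median difference of 1.19 on 6 arrays and 0.93 on 5, and none was called. On 6 arrays all 8 had an unadjusted p under 0.05 by the log2 table's names (limma), against 10.7% of all tested probe sets. Under the series matrix's names the markers Os01g0600900 (0.0825), Os06g0320500 (0.0616), Os11g0707000 (0.104) and Os01g0869800 (0.122, limma) did not. The share over all tested probe sets was then 8.08%. The ratio of the 3' to the 5' probe set of GAPDH was also higher in Varadan: the lowest Varadan array (4.38) lay above the highest Prasanna array (3.52). That of cyclophilin overlapped, at 1.34 to 1.83 in Varadan and 1.39 to 1.54 in Prasanna. The part of either in the level of GS2 was not tested. Within Varadan both GS2 and the mean of the markers were highest on the array without nitrogen, and within Prasanna GS2 was lowest and the mean of the markers highest there. The Varadan order holds under the log2 table's names; under those of the series matrix GS2 was lowest (10.22) and the marker mean the middle of 3 (12.67) on the array without nitrogen. Between the supplies all 8 markers had a positive response on 6 arrays by the log2 table's names, with a median of 0.80, and none was called. Under the series matrix's names Os01g0600900 and Os06g0320500 had responses of -0.01 and -0.05. Of the 4 root markers all had a positive response by the log2 table's names, with a median of 0.40, and none was called. Under the series matrix's names Lsi1 had -0.03.

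**Figure D3:**
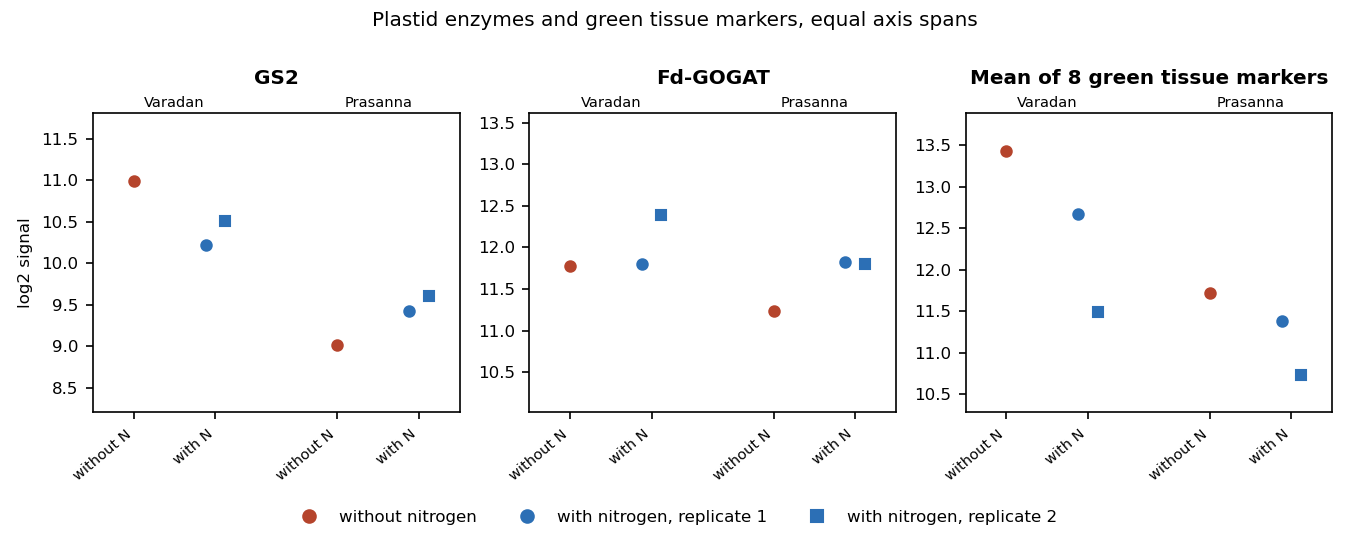
Log2 signal of GS2, of Fd-GOGAT and of the mean of the 8 green tissue markers (vertical axes of equal span) on each array, Varadan left of Prasanna. Both GS2 and the marker mean are higher in Varadan without nitrogen (10.99 and 13.43) than in Prasanna without nitrogen (9.02 and 11.71); by the log2 table's names both are highest without nitrogen within Varadan, and within Prasanna GS2 is lowest and the marker mean highest there.

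The nitrogen responses of the varieties were set against each other by an interaction term, Varadan response minus Prasanna response. None of the 10 genes was called, nor was any tested probe set (0%), and 1 gene, GS2, had an unadjusted p under 0.05, against 5.36% of all tested probe sets. For GS2 the response was 0.63 in Varadan and -0.50 in Prasanna, and the difference was 1.13 ± 0.42 (adjusted p = 0.925, limma). Under the names of the series matrix the response of GS2 in Varadan was -0.53 and the difference -0.04, so the opposite signs hold under one naming of the arrays only.

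The place of Varadan replicate 1 was described gene by gene, as its distance from the Varadan array without nitrogen in percent of the gap to replicate 2. Arrays are named as in the log2 table, and the percentages hold under those names only. AS1 lay at 1.95%, Fd-GOGAT at 4.94%, GS1.1 at 12.7%, AlaAT at 30.3% and NADH-GOGAT1 at 30.4% by their leading probe sets. For AS2 the position was -25.3%, beyond the array without nitrogen. The other tested probe sets of Fd-GOGAT lay further along, at 47.6% and 46.2%, and those of AlaAT lay on either side of the leading one, at 20.8% and 69.8%. The second probe set of GS2 lay at 154%, beyond replicate 2. GS1.2, GS1.3, the leading probe set of GS2 and the second of NADH-GOGAT1 had a gap under 0.5 and were given no position, nor was NADH-GOGAT2, with a reading at background level. Over the 14822 tested probe sets with a gap of at least 0.5 and no low Varadan reading the median was 50.6%, and 49.5% lay nearer to the array without nitrogen. These genes were not chosen independently of nitrogen, so their positions are a description.

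**Figure D4:**
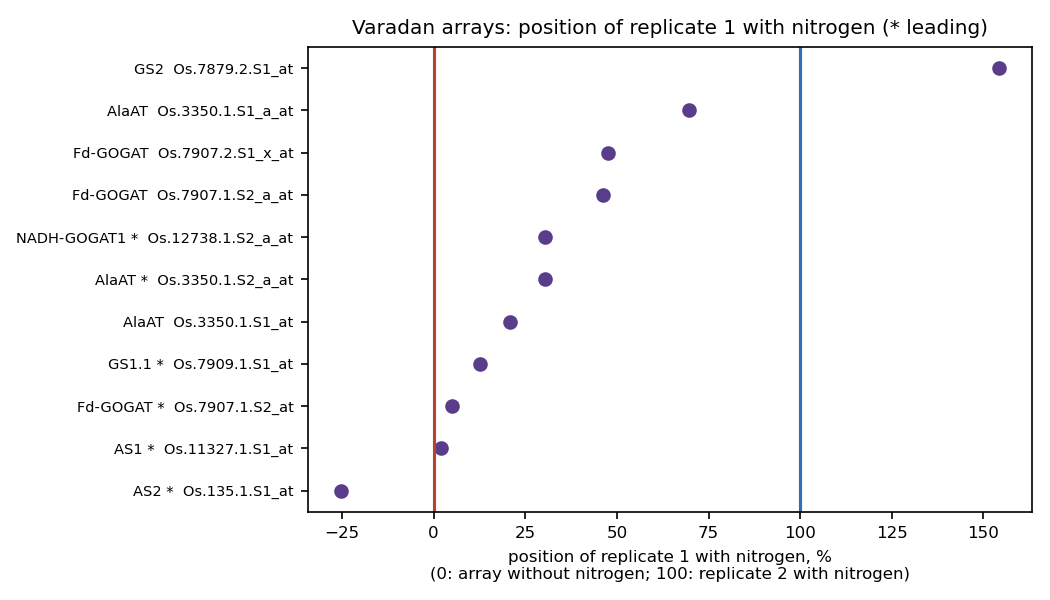
Position of replicate 1 of Varadan with nitrogen (horizontal axis, percent), measured from the Varadan array without nitrogen (red line) to replicate 2 (blue line), for the probe sets of the 10 genes whose gap was at least 0.5 log2 and whose Varadan readings were above background level. AS1 at 1.95%, Fd-GOGAT at 4.94% and GS1.1 at 12.7% (leading probe sets, marked with a star) sit next to the array without nitrogen. The percentages hold under the log2 table's names only.

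For each gene the most similar pattern over the 6 arrays was sought among 27427 probe sets with 1 gene, by Pearson's r. AS1 was closest to Os10g0558900 (r = 0.9998), GS1.1 to Os09g0433000 (r = 0.999), AlaAT to Os05g0593800 (r = 0.999) and GS2 to Os10g0335200 (r = 0.992). NADH-GOGAT1 was closest to Os01g0958200 (r = 0.999), AS2 to Os01g0555300 (r = 0.999), Fd-GOGAT to Os03g0198400 (r = 0.992), GS1.2 to Os02g0662200 (r = 0.992) and GS1.3 to Os01g0730200 (r = 0.978). The nearest to NADH-GOGAT2, with its 3 readings at background level, was Os11g0148300 (r = 0.996). With 6 points and this many candidates high values are common: 512 candidates had r over 0.95 with GS1.1, 388 with AlaAT, 169 with AS1 and 15 with GS1.2. The points share arrays and scaling. The labels in doubt do not enter r, as both patterns are read on the same arrays.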

How the data were processed

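Root RNA was measured on 6 Affymetrix arrays, 1 per sample. The signals are MAS5 values, per the submitters' processing notes; the version and settings of that step are not stated here. The deposited log2 table gives them on the log2 scale, and the deposited series matrix as linear intensity. On the linear scale each array had a mean of 500 once its outer 2% on either side were trimmed. The tables were equal by name for 4 arrays, within 1e-06 on the log2 scale, and exchanged for the other two. No detection calls were used.

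Of all probe sets 187 controls were left out, and the 34316 with a mean at or above the 40th percentile (4.42) were tested with limma 3.58.1 in R 4.3.3 (lmFit, eBayes with trend, two-sided). Benjamini-Hochberg adjustment ran over all of them, with a threshold of 0.05. Responses over both varieties and the variety difference came from an additive model on 6 arrays. Within-variety responses and the interaction used a group-means model (each variety at each supply), in which a lone array is assumed to vary like the replicate pairs. The fits on 5 arrays leave out Varadan with nitrogen, replicate 1, after its nitrogen-responsive genes were seen, and serve as description only. A reading below its array's 40th percentile counts as at background level. Only the replicate number 2 stands in the labels, so number 1 is a name.

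All 10 loci were named with every probe set, and for each the nearest pattern among probe sets of 1 other gene. Gene names of the other loci came from the list or from a reference gene table (assembly ASM3414082v1). The genes and lists were chosen with earlier results of these data known. Scripts were tested on simulated data. The number of arrays limits the precision, and scaling to 1 level would hide a shift shared by most genes.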

Additional observations from a re-analysis of the deposited data

Results flagged for a closer look

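Both probe sets of GS2 and the second probe set of NADH-GOGAT1 had nitrogen responses of opposite order in the varieties, under the array names of the log2 table. On the leading probe set of GS2 the array without nitrogen was above both arrays with nitrogen in Varadan and below both in Prasanna, with a difference of responses of 1.13 ± 0.42 (SE). On its second probe set the order was the same and the difference was 2.46 ± 0.87. On the second probe set of NADH-GOGAT1 the difference was 1.31 ± 0.45, while its leading probe set was lower without nitrogen in both varieties. The difference itself was tested by limma's interaction term, with an adjusted p of 0.925 for each, so none passed. In the series matrix, where the Varadan array without nitrogen and replicate 1 with nitrogen are exchanged, the difference was -0.04 for the leading probe set of GS2 and -1.05 for the second, with a negative response in both varieties on each. For the second probe set of NADH-GOGAT1 it was 1.18, with a response of 0.13 in Varadan and -1.05 in Prasanna.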

How the results depend on the processing

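No paired analysis was possible because the labels give only replicate number 2, and only to the groups with nitrogen. In the series matrix 3 responses over both varieties turned sign, GS1.2 to -0.0311, GS1.3 to -0.0495 and GS2 to -0.515; GS2 in Varadan became -0.533 and its interaction -0.0361. Quantile normalization gave -0.192 for GS1.2, and the mean of all probe sets gave 0.350 for Fd-GOGAT in Varadan. That mean holds the untested probe set at background level on 5 of 6 arrays; the mean of the tested ones, added after seeing the data, gave -0.771. Without the trend 176 probe sets differed between the varieties, against 601. Other alternatives on 6 arrays left 236 values of the 9 genes with no low reading on their side of the threshold with their sign, and the 7 named here turned. The cause of these turns was not tested. Alternatives that changed only the filter or the variance estimate could not turn a sign. The exchanged names likewise leave the responses in Prasanna and the variety differences as they were. The count also leaves out the other probe sets of a gene taken singly.

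Leaving out 1 array at a time gave 0 to 5 called genes and 0 to 4616 probe sets for the response over both varieties, 0 to 171 probe sets in Prasanna, 0 to 241 in Varadan, and 0 to 1 gene and 239 to 820 probe sets for the variety difference. The 5 genes and the 1 gene came without replicate 1 of Varadan with nitrogen. Responses that turned sign were GS1.2 (-0.0285 to 0.153), GS2 (-0.497 to 0.629) and, in the series matrix, GS2 in Varadan (-0.291).

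Alternatives on the 5 arrays without that replicate were added after seeing the data, and their calls for the nitrogen response rest on an array left out for its outcome. For the response over both varieties the series matrix, less the array it names so, called 3 genes (GS1.1, AS1 and AlaAT) and 2880 probe sets, with GS1.2 at -0.0152 and GS2 at -0.409, and 55 probe sets in Varadan. Quantile normalization called 5 genes and 4195 probe sets, with GS1.2 at -0.226. The 60th percentile as filter called 5 genes and 5336 probe sets, no filter 4 and 4086, the mean of all probe sets 3, that of the tested ones 4, and no trend 0 and 0. GS2 was -0.0767 in each of these that kept the leading probe set's values as deposited. For the variety difference the series matrix called GS2 and 1099 probe sets, and no trend called 32 probe sets. Low signals are noisy in MAS5, which limits NADH-GOGAT2 and the second probe set of GS2.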
